A study of Bos taurus with 38 samples.

Results

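First-parity Holstein cows were compared with third-parity Holstein cows in liver, the organ that converts absorbed nutrients into glucose, lipids and plasma proteins for the lactating udder. Parity counts the calvings of a cow, so a parity 1 cow was in its first lactation. The members were chosen by the parity number in the sample labels: 3 cows of parity 1 and 3 cows of parity 3, which gave 12 of the 38 libraries of the series and 6 of its 19 cows. A cow gave 1 biopsy on the Control (Low Concentrate) diet (C) and 1 on the high concentrate diet (HC), and the counts of both libraries of a cow were summed, so that the cow was the unit and both diets weighed in each cow. The 3 Holstein cows of parity 2 (6 libraries) were used to see where the intermediate parity lay.

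Cows are named by the number in their sample title. Parity 1 held cows 15, 16 and 19, parity 2 held cows 7, 9 and 11, and parity 3 held cows 1, 2 and 6. The feed efficiency labels were balanced between parity 1 and parity 3, with 2 cows labelled High and 1 labelled Low in each (cow 15 and cow 2 were the Low ones). Low feed efficiency stands for a high residual feed intake (RFI), a cow eating more than predicted from its production. The RFI values that the study lists were not balanced: they were negative in every parity 1 Holstein and positive in most of parity 3. The fits with feed efficiency used the label and not the value, so RFI and parity are not fully separated. Parity 2 held 1 High cow (11) and 2 Low cows (7 and 9). All were lactating Danish Holsteins of 1 research herd, and the labels give no age. The study grouped cows into selection blocks of similar lactation stage and parity group, and no block held both a parity 1 and a parity 3 cow, so parity, age and lactation stage cannot be told apart here. The order of the diets also differed: HC came first in 2 of the parity 1 cows and 1 of the parity 3 cows.

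Hepatic lipid synthesis, the oxidation of mobilised fat, bile acid synthesis and the growth hormone axis all depend on hormones such as growth hormone and insulin, and a cow in its first lactation is still growing. The growth hormone axis acts on liver through its receptor and is damped by SOCS2, an inhibitor of cytokine receptor signalling. Fatty acid synthesis starts with ACACA, acetyl-CoA carboxylase, and in ruminants takes place mainly in adipose tissue and udder rather than liver. Only 77 of the Ensembl identifiers could be paired with a symbol, all from the study's lists of genes that differed with RFI in the Holsteins (61) or Jerseys (16), and 74 of them were tested here. The Holstein part of this list was therefore picked on these same cows, although for RFI and not for parity. No hepatocyte marker was among the paired genes, and the liver label could be checked only through CYP7A1 and CYP3A4, both abundant in every cow (at least 64.5 and 95.8 CPM, the read pairs of a gene scaled to the library size).

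Between 18551055 and 20804568 read pairs were counted on genes in the 12 libraries, 74.9% to 79.9% of the read pairs in each file. The highest share was that of cow 16 on the HC diet. The 10 most abundant genes took 24.5% to 27.7% of the counts. The libraries of a cow differed by at least 23.2 times the sampling noise (chi-square per degree of freedom), so they were not copies of each other. On the first principal component of the 9 Holsteins (18.9% of the variance) cow 16 lay at 30.4 while the other 8 cows lay between -16.9 and 7.44, and the 3 parities overlapped. On the second (18.6%) parity 1 leaned lower, at 1.38, -9.59 and -11.5 (cows 15, 16 and 19). Parity 3 lay at 22.8, -2.18 and 8.38 (cows 1, 2 and 6), and the ranges overlapped. The study reports that parity had a strong effect in its own principal component analysis, which used single samples. The mean absolute log2 difference between 2 cows was 0.256 over the 9 pairs that joined parity 1 with parity 3, against 0.258 within parity 1 and 0.235 within parity 3 (3 pairs each). Averaged over all genes, cows of different parity were thus no further apart than the parity 1 cows, which include cow 16, were from each other. They were slightly further apart than the parity 3 cows were from each other.

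Very few genes differed between parity 1 and parity 3 beyond the spread between cows. Of 11998 genes with at least 1 CPM in at least 3 of the 6 cows, 2 passed a Benjamini-Hochberg adjusted p of 0.05 in edgeR's quasi-likelihood test (0.0167%), 1 higher and 1 lower in parity 1. An unadjusted p under 0.05 was reached by 758 genes (6.32%), 376 higher and 382 lower in parity 1. The median log2 fold change over all genes was 0.00065, and the median absolute log2 fold change was 0.10 with a median standard error (SE) of 0.13. Log2 fold changes are parity 1 minus parity 3 throughout. The 3 cows of each side did not overlap in 705 genes higher in parity 1 (5.88%) and 726 genes higher in parity 3 (6.05%). Of these, 29 and 21 genes differed by at least 2 times in their mean CPM. No gene was above 1 CPM in all cows of one parity and at or below 0.1 CPM in all cows of the other. An exact permutation test of a single gene in 3 against 3 cows cannot give a two-sided p below 0.1, so the tests reported are those of the fit across all genes.

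**Figure D1:**
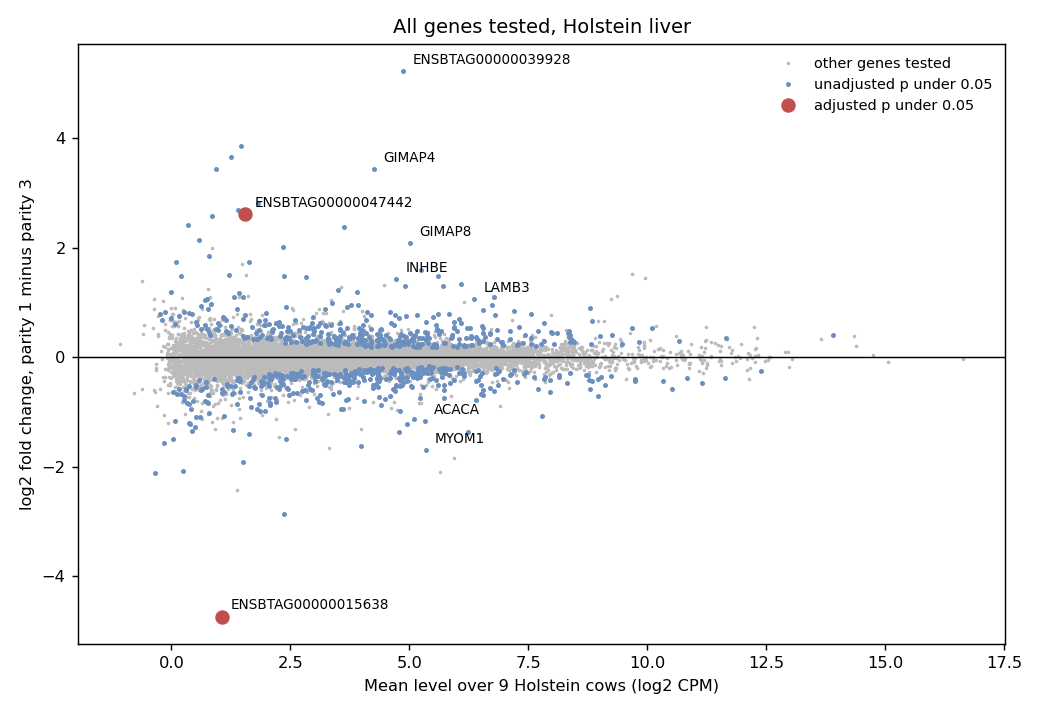
Log2 fold change (parity 1 minus parity 3, vertical axis) against the mean level over the 9 Holstein cows (log2 CPM, horizontal axis), 1 point per gene tested. Most of the 11998 genes lie close to 0, the 758 genes with an unadjusted p under 0.05 (blue) lie on both sides, and 2 genes (red) passed the adjusted p of 0.05.

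The called gene that was lower in parity 1 was ENSBTAG00000015638, for which no symbol was paired. Its level was 0.286, 0.368 and 0.370 CPM in cows 15, 16 and 19 of parity 1, and 10.1, 8.65 and 8.87 CPM in cows 1, 2 and 6 of parity 3. These levels rest on 11 to 15 read pairs a cow in parity 1 and 340 to 408 in parity 3. The log2 fold change was -4.74 (SE 0.17, edgeR adjusted p = 6.5e-05), and parity 3 was 27.0 times parity 1 in mean CPM. Of the 6 cows only those of parity 3 reached 1 CPM, so the gene entered the test only through the group where it was high. Its p is to be read with that limit. The parity 2 cows did not lie between. Cows 7 and 9 stood at 9.75 and 8.05 CPM, with parity 3, and cow 11 stood at 0.144 CPM, below every parity 1 cow. With all 9 cows in the fit the adjusted p was 0.340, and in a limma-voom fit of the 18 Holstein libraries that took cows as a random effect (the replicate block) it was 0.0815. The block fit used the same within-cow correlation (0.192) for every gene. Where a gene's libraries follow the cow more closely, they count as too independent and the p is too small. This limit holds for every replicate block p given below.

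The called gene that was higher in parity 1 was ENSBTAG00000047442, also without a symbol. Its level was 5.61, 5.49 and 5.90 CPM in cows 15, 16 and 19, against 0.665, 1.30 and 0.809 CPM in cows 1, 2 and 6. The log2 fold change was 2.61 (SE 0.24, edgeR adjusted p = 0.0347), or 6.13 times in mean CPM. The parity 2 cows again fell at both levels, with cows 7 and 9 at 9.56 and 7.39 CPM and cow 11 at 1.40 CPM. Cow 15 was itself at both levels: its C library held 1.39 CPM and its HC library 9.70 CPM, so the 6 libraries of parity 1 overlapped those of parity 3, the highest of which held 1.75 CPM. The adjusted p was 0.340 with all 9 cows, 0.291 with the replicate block, and above 0.05 in 5 of the 6 fits that left out a cow and in each diet on its own.

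Next by p came a pair of genes with high and low cows, both just short of a call. GIMAP4, one of the GTPases of immunity-associated proteins that act in the survival of lymphocytes, held 89.2, 35.2 and 75.6 CPM in cows 15, 16 and 19. It held 6.06, 7.89 and 4.37 CPM in cows 1, 2 and 6. The log2 fold change was 3.45 (SE 0.37, edgeR adjusted p = 0.0715), and parity 1 was 10.9 times parity 3 in mean CPM, with no overlap among the 12 libraries. In parity 2, cow 9 stood at 96.0 CPM, above every parity 1 cow, and cows 7 and 11 stood at 9.83 and 7.24 CPM.

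ENSBTAG00000039928, the other gene of this pair, had high cows in the same places. It held 290, 72.9 and 276 CPM in cows 15, 16 and 19, against 5.30, 7.89 and 3.79 CPM in cows 1, 2 and 6 (log2 fold change 5.23, SE 0.58, edgeR adjusted p = 0.0715). In parity 2 it held 350 CPM in cow 9, and 8.13 and 5.80 CPM in cows 7 and 11. Both passed on each diet alone, with adjusted p of 0.0429 on C and 0.0344 on HC for GIMAP4, and of 0.0407 and 0.0421 for ENSBTAG00000039928. With feed efficiency added to the 6 cows the adjusted p was 0.0322 for GIMAP4 and 0.0400 for ENSBTAG00000039928, and each passed in 7 of 18 alternative fits. In the 9 cows with feed efficiency neither did (adjusted p = 0.395 and 0.496). Both genes were low in all parity 3 cows, high in all parity 1 cows and split among the parity 2 cows.

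GIMAP8, a second member of the GIMAP family, followed in a weaker form. Its level was 91.2, 28.4 and 103 CPM in parity 1 (cows 15, 16 and 19) and 16.2, 18.3 and 18.1 CPM in parity 3 (cows 1, 2 and 6). The log2 fold change of 2.08 (SE 0.42) had an unadjusted p of 0.00124 and an edgeR adjusted p of 0.354. Cow 16 was the lowest of its group in all 3 genes, and without it GIMAP4 and GIMAP8 passed, with adjusted p of 0.00699 and 0.00101. GIMAP genes are close relatives of each other, and how read pairs were shared among copies is uncertain.

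**Figure D2:**
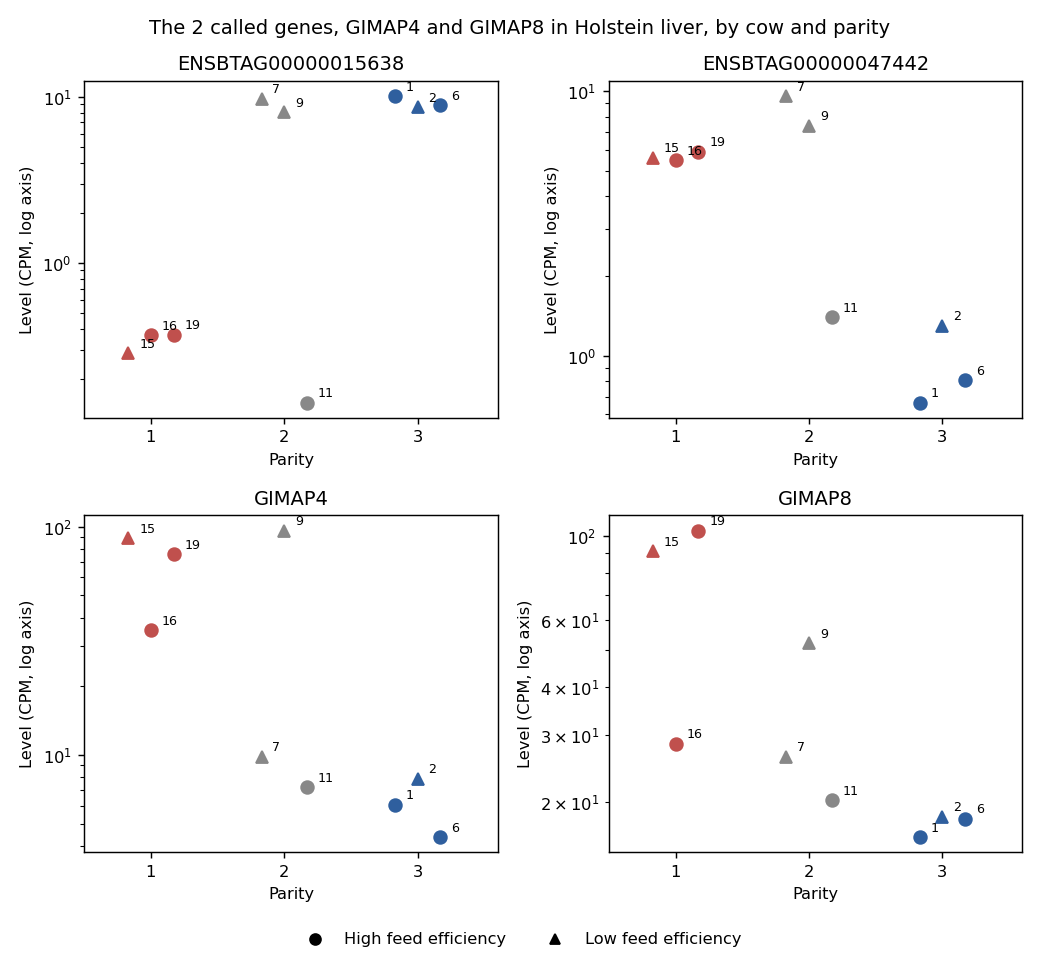
Level (CPM, log axis) of the 2 called genes, GIMAP4 and GIMAP8 in each Holstein cow, by parity; circles are cows of High and triangles of Low feed efficiency, and the numbers name the cows. Parity 1 and parity 3 do not overlap in any of the 4 genes, while the parity 2 cows take both the high and the low level of the 2 called genes and of GIMAP4.

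The other gene named without a symbol, ENSBTAG00000006626, also had parity 2 cows at both levels. It held 0.364, 0.735 and 0.617 CPM in parity 1, 0.937, 0.679 and 1.97 CPM in parity 2 (cows 7, 9 and 11) and 2.42, 2.01 and 2.81 CPM in parity 3. Cow 9 lay within the range of parity 1, cow 11 lay just under the lowest parity 3 cow, and cow 7 lay between. Its log2 fold change was -2.07 (SE 0.28, edgeR adjusted p = 0.146) at a level close to the limit of 1 CPM. Of the 6 cows only those of parity 3 reached that limit, so this gene too was tested only through the group where it was high. It passed with feed efficiency added to the 6 cows (adjusted p = 0.0484) and with the replicate block in limma-voom on 18 libraries (adjusted p = 0.0258), but not in the 9 cows with feed efficiency (adjusted p = 0.129).

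Among the 74 tested genes with a symbol, 0 passed the adjusted p of 0.05 in edgeR. Of them, 8 reached an unadjusted p under 0.05 (10.8%, against 6.32% of all genes), 5 higher and 3 lower in parity 1. DESeq2's Wald test, run on the same 6 cows, called 84 of all 11998 genes and 4 of the 74 (GIMAP8, LAMB3, ACACA and GIMAP4). The cows did not overlap in 3 of the 74 higher in parity 1 (4.05%) and 3 higher in parity 3 (4.05%), shares close to those of all genes. ACACA, MYOM1 and ARMC10, an armadillo repeat protein, were those higher in parity 3, and GIMAP4, GIMAP8 and LAMB3 those higher in parity 1. Their median log2 fold change was -0.01. In 55 of the 74 the absolute log2 fold change was under 0.5.

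Of the genes with a symbol that were lower in parity 1, the lipid synthesis gene ACACA had the smallest p. ACACA, acetyl-CoA carboxylase, makes the malonyl-CoA from which fatty acids are built and which restrains their oxidation. Its level was 29.7, 19.1 and 24.1 CPM in cows 15, 16 and 19 of parity 1, and 45.7, 71.5 and 46.9 CPM in cows 1, 2 and 6 of parity 3. Parity 2 lay with parity 3, at 52.7, 56.5 and 43.2 CPM in cows 7, 9 and 11. All 3 parity 1 cows were below all 6 older cows, a pattern that 231 of all genes showed (1.93%) and, among the 74, also MYOM1. The 12 libraries of parity 1 and parity 3 did not overlap either: the highest of parity 1 held 30.2 CPM and the lowest of parity 3 held 37.9 CPM.

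The means of ACACA were 24.3 ± 5.32 CPM in parity 1, 50.8 ± 6.83 in parity 2 and 54.7 ± 14.6 in parity 3 (SD, n = 3 cows each). Parity 3 was 2.25 times parity 1 in mean CPM. In the 6 cows the log2 fold change was -1.17 (SE 0.22, unadjusted p = 0.00071, edgeR adjusted p = 0.294), which did not pass. Within each parity the cows labelled Low in feed efficiency held the highest levels (cow 15, cows 7 and 9, and cow 2), and ACACA was on the study's list for that contrast. With the 9 cows and feed efficiency in the model, the log2 fold change was -1.16 (SE 0.10, edgeR adjusted p = 0.0233), and ACACA was the 1 gene called of 11998 (0.00833%). Feed efficiency added to the 6 cows also gave a call (adjusted p = 0.0383), as did the replicate block (adjusted p = 0.00243). ACACA passed in 5 of the 18 alternative fits, with log2 fold changes from -1.34 to -0.58, the last being per step of parity.

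The other 3 genes of lipid synthesis did not pass and differed in direction. MBOAT2, an acyltransferase of phospholipids, had a log2 fold change of -1.62 (SE 0.64, unadjusted p = 0.037, adjusted p = 0.758). Its values were 9.45, 11.3 and 4.42 CPM in parity 1 and 13.7, 53.9 and 10.1 CPM in parity 3, so that the difference lay mainly in cow 2 and the groups overlapped. ELOVL6, which lengthens palmitate, held 44.1, 26.6 and 40.6 CPM in parity 1 against 46.5, 88.1 and 30.9 CPM in parity 3 (log2 fold change -0.57, SE 0.36). Cow 2 was again the high one. DGAT2, which completes triglycerides, had a log2 fold change of 0.17 (SE 0.23).

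**Figure D3:**
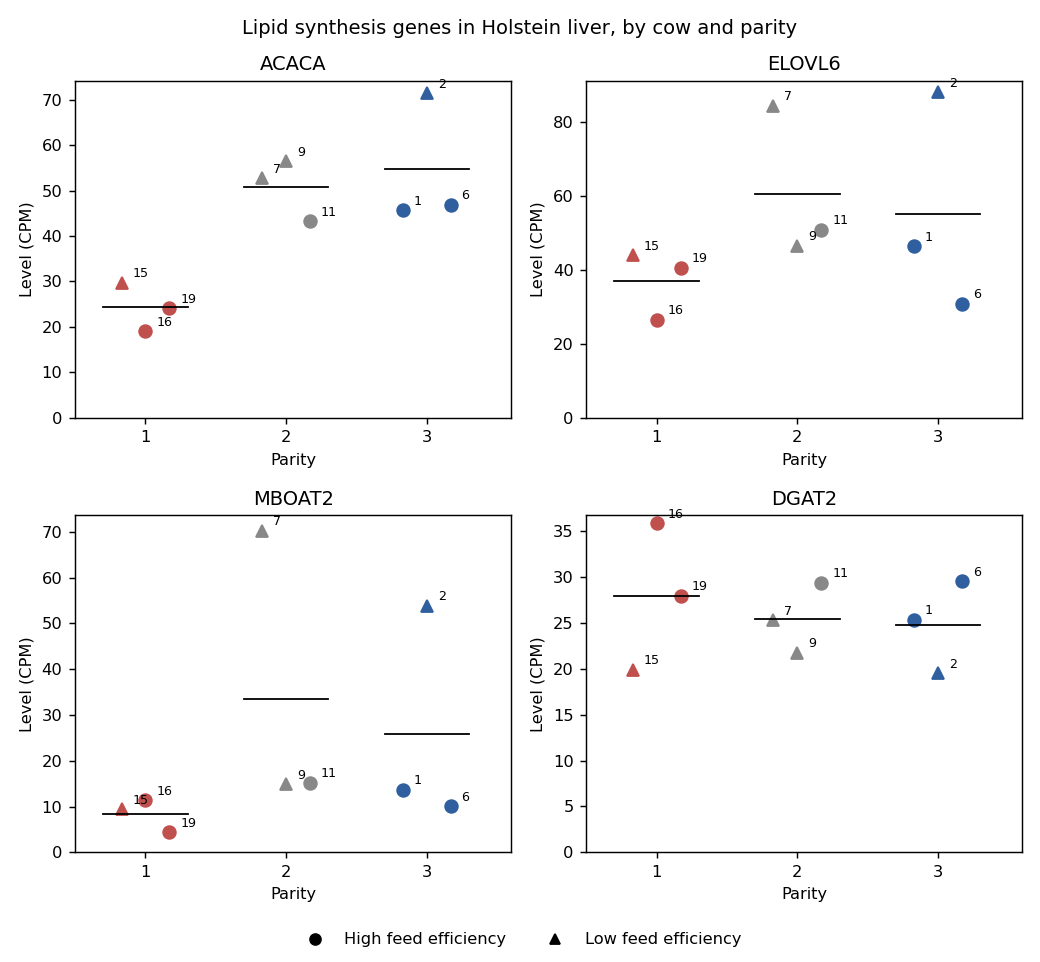
Level (CPM) of ACACA, ELOVL6, MBOAT2 and DGAT2 in each Holstein cow, by parity; lines are means of 3 cows, circles are cows of High and triangles of Low feed efficiency, and the numbers name the cows. ACACA is below 30 CPM in the parity 1 cows and above 43 CPM in the other 6, whereas the parities overlap in the other 3 genes.

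Genes of fatty acid oxidation and ketone bodies had small log2 fold changes. HSD17B4, an enzyme of peroxisomal oxidation and the most abundant of them, held 616 to 910 CPM in parity 1 and 571 to 643 CPM in parity 3 (log2 fold change 0.29, SE 0.15, adjusted p = 0.823). HACL1, for the alpha-oxidation of branched fatty acids, ACOT8, a peroxisomal thioesterase, and BDH2, a cytosolic hydroxybutyrate dehydrogenase, had log2 fold changes of 0.15, -0.23 and 0.08. None of the 4 had an unadjusted p under 0.05.

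Bile acid and cytochrome P450 genes overlapped between parity 1 and parity 3. NR1H4, the nuclear receptor for bile acids, held 73.8, 59.1 and 66.7 CPM in parity 1 and 52.2, 62.2 and 56.2 CPM in parity 3 (log2 fold change 0.22, SE 0.11, adjusted p = 0.814). CYP7A1, the rate-limiting enzyme of bile acid synthesis, held 199, 93.2 and 107 CPM in parity 1 and 64.5, 223 and 90.2 CPM in parity 3 (log2 fold change 0.08, SE 0.47). In both parities the highest level was that of the cow of Low feed efficiency, and the spread among cows exceeded the difference between parities. The sum over diets joined opposite signs for CYP7A1: on C alone the log2 fold change was 0.82 (SE 0.42, unadjusted p = 0.091 in edgeR), and on HC alone it was -1.08 (SE 0.56, unadjusted p = 0.0894). CYP11A1, which cleaves the side chain of cholesterol, had a log2 fold change of -0.97 with an SE of 0.64. On C alone it was -1.95 (SE 0.61, unadjusted p = 0.0137 and adjusted p = 0.396 in edgeR). On HC alone it was -0.40 (SE 0.63, unadjusted p = 0.541). FDXR, the reductase that passes electrons to CYP11A1, and CYP3A4, an enzyme of drug and steroid oxidation, were at -0.12 and -0.08.

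Of 13 leukocyte and immune genes, only GIMAP4 and GIMAP8 had an unadjusted p under 0.05, and the median log2 fold change of the 13 was 0.13. CD3D, part of the T cell receptor complex, held 4.54, 3.94 and 3.13 CPM in parity 1 and 3.72, 4.45 and 2.22 CPM in parity 3. NKG7, of the granules of cytotoxic lymphocytes, held 10.04 to 11.8 CPM in parity 1 and 6.85 to 14.9 CPM in parity 3. Both lymphocyte markers overlapped between the parities where GIMAP4 did not. Among the 6 cows NKG7 was highest in cow 2, with low GIMAP4, and CD3D was highest in cow 15, with high GIMAP4. Only these 2 of the 40 T and NK cell markers were paired, and the lymphocyte content of the biopsies was not tested. In a bulk biopsy fewer cells of a type and less RNA per cell cannot be told apart.

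The other immune genes also overlapped. HCLS1, a signalling adaptor of blood cells, had a log2 fold change of 0.27 (SE 0.14). LYZ, lysozyme, was at -0.71 (SE 0.36), CR2, a complement receptor, at -0.43 (SE 0.27) and SELP, the adhesion molecule P-selectin, at -0.35 (SE 0.21), all with an adjusted p of at least 0.820. The largest negative value of the group, -2.10 for the MHC class I gene JSP.1, had an SE of 1.33. It came from cow 2, with 575 CPM against 6.46 and 34.2 CPM in cows 1 and 6 and 22.6 to 71.8 CPM in parity 1. MHC class I genes have close copies, and their counts are uncertain. BOLA-A, another class I gene, was at 0.17 (SE 0.12), and the interferon-induced IFI6 at -0.06 (SE 0.30).

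Among growth and secreted factors, LAMB3 and INHBE had an unadjusted p under 0.05. LAMB3, a laminin chain of basement membranes, held 122, 104 and 89.4 CPM in parity 1 and 56.4, 65.9 and 27.8 CPM in parity 3 (log2 fold change 1.07, SE 0.29, unadjusted p = 0.00693, adjusted p = 0.551). LAMB3 passed with the replicate block (adjusted p = 0.0258) and not in the 9 cows with feed efficiency (adjusted p = 0.395). Parity 2 was at 106, 168 and 81.4 CPM, so that all 3 parity 3 cows were below the 6 younger ones, as in 133 of all genes (1.11%) and, of the 74, also GIMAP8. INHBE, the beta E subunit of the inhibin and activin family secreted by liver, held 21.2, 61.0 and 48.8 CPM in parity 1 and 11.2, 9.44 and 28.0 CPM in parity 3. Its log2 fold change was 1.43 (SE 0.49, adjusted p = 0.737), and cow 15 was below cow 6.

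No gene of growth signalling proper passed the test. SOCS2 held 54.1, 32.0 and 37.4 CPM in parity 1 and 26.6, 89.5 and 59.4 CPM in parity 3 (log2 fold change -0.51, SE 0.39, adjusted p = 0.895). It was the only gene of the growth hormone axis that could be paired. FGFR2, a fibroblast growth factor receptor, and PCSK6, a convertase that cleaves precursors of secreted proteins, were both at -0.02.

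MYOM1, a structural protein of the sarcomere, was the other gene with all parity 1 cows below the 6 older ones. It held 32.8, 9.74 and 26.7 CPM in parity 1, 48.8, 57.7 and 41.1 CPM in parity 2 and 66.4, 124 and 35.3 CPM in parity 3. The log2 fold change was -1.71 (SE 0.53, unadjusted p = 0.0134, adjusted p = 0.670). MYOM1 passed with the replicate block in limma-voom (adjusted p = 0.0260) and not in edgeR on the 9 cows with feed efficiency (adjusted p = 0.395). Its libraries followed the cow, with 110 and 137 CPM in cow 2 and 8.08 and 11.7 CPM in cow 16. The shared correlation of the block can thus understate the spread between cows for MYOM1. The other muscle-type genes overlapped: RYR1, a calcium release channel, was at -0.64 (SE 0.28), CKB, the brain-type creatine kinase, at -0.18, and CHRNE, a subunit of the acetylcholine receptor, at 0.80 with an SE of 0.78. No skeletal muscle marker of the fixed list was paired, and the part of muscle in the biopsies was not tested. TMEM98, a membrane protein, held 15.8, 32.8 and 32.3 CPM in parity 1 and 19.4, 10.5 and 11.7 CPM in parity 3 (log2 fold change 0.95, SE 0.33, adjusted p = 0.737), with parity 2 lowest at 9.25 to 11.7 CPM.

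**Figure D4:**
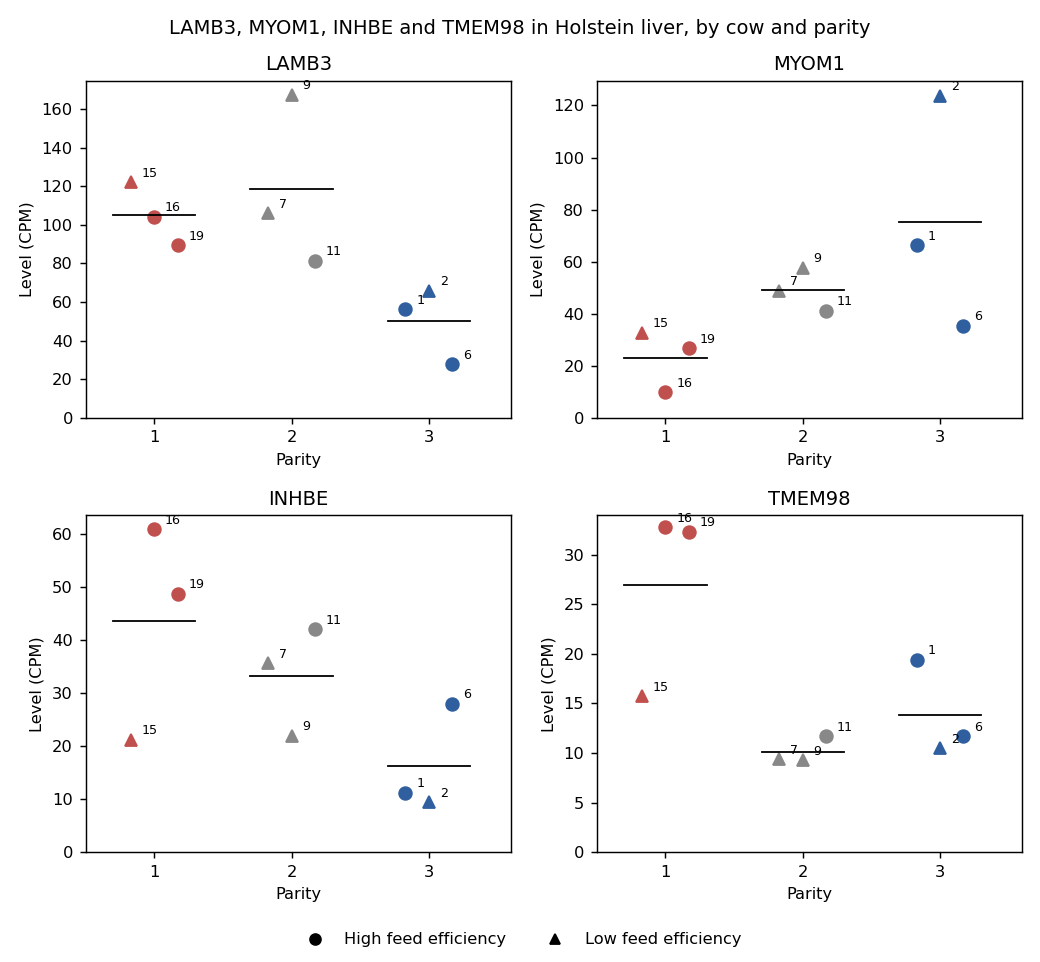
Level (CPM) of LAMB3, MYOM1, INHBE and TMEM98 in each Holstein cow, by parity; lines are means of 3 cows, circles are cows of High and triangles of Low feed efficiency, and the numbers name the cows. Parity 1 and parity 3 do not overlap in LAMB3 and MYOM1 and overlap in INHBE and TMEM98.

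Transporters and enzymes of amino acid synthesis held no gene with an unadjusted p under 0.05. The 6 transporters had log2 fold changes from -0.45 (SLC17A1) to 0.61 (SLC25A34). CTH, which makes cysteine, and ALDH18A1, which starts proline synthesis, were at 0.19 and -0.01. Of the 31 genes outside these groups, TMEM98 alone had an unadjusted p under 0.05. REC8, a cohesin subunit of meiosis, had high and low cows in both parities. It held 0.104, 11.8 and 0.247 CPM in parity 1 and 33.4, 0.483 and 31.5 CPM in parity 3. Its log2 fold change was -2.44 (SE 1.54, edgeR adjusted p = 0.850). REC8 came close to a call (adjusted p = 0.0562) with the replicate block in limma-voom over the 18 Holstein libraries. That fit's shared correlation can understate the spread between cows for a gene that is high or low by cow. In edgeR on the 9 summed cows with feed efficiency, the adjusted p of REC8 was 0.721. CCDC64, of vesicle transport, and EXTL2, a glycosyltransferase of heparan sulfate, were the remaining genes with the smallest p among those lower in parity 1, at -0.65 and -0.66 with adjusted p of 0.823 and 0.832.

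**Figure D5:**
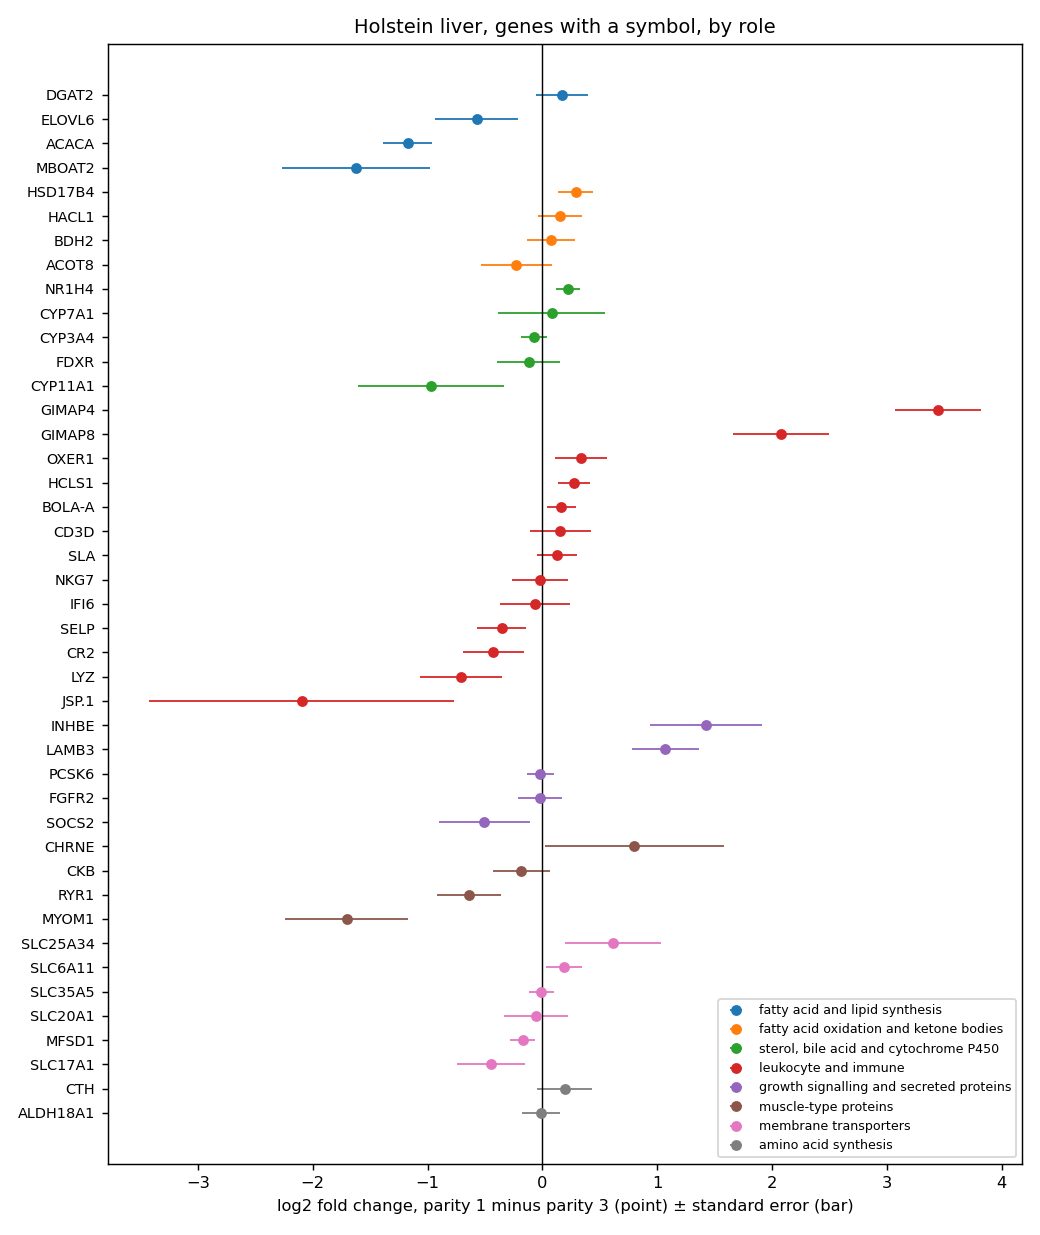
Log2 fold change (parity 1 minus parity 3, points) with its standard error (bars) for 43 genes with a symbol, coloured by role. GIMAP4 and GIMAP8 stand to the right, MBOAT2, MYOM1, ACACA and JSP.1 to the left, and the bars of JSP.1 and CHRNE are the longest.

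The position of parity 2 was read from the group means of log2 CPM. Both called genes had their parity 2 mean between parity 1 and parity 3, but as a mix of high and low cows and not as intermediate levels. Among the 758 genes with an unadjusted p under 0.05 the parity 2 mean was between the others in 577 (76.1%), against 37.5% of all genes. Genes chosen for a wide gap between parity 1 and parity 3 leave more room between the means, so nothing is read from that difference. Where it lay outside, it was beyond parity 3 in 125 genes and beyond parity 1 in 56.

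The same contrast in Jersey cows (4 of parity 1 and 4 of parity 3) was used only to test whether the Holstein difference was particular to the breed. The libraries of 1 Jersey in the fit are in doubt: the C library labelled cow 17 was like the C library of cow 10, which is of parity 2, and likewise for HC. GIMAP4 was at 26.6 and 64.6 CPM in the libraries of cow 17 and at 23.8 and 62.6 CPM in those of cow 10. In the fit of 14 cows, 0 of 12309 genes differed in their parity effect between breeds at an adjusted p of 0.05 (0%). edgeR was the one tool run, and it gave 644 genes at an unadjusted p under 0.05 (5.23%). Without cow 17 the numbers were 0 and 579. Leaving out Jersey cow 14 alone gave 1 call, ENSBTAG00000047442 (difference in log2 fold change 3.02, SE 0.33, adjusted p = 0.00983). Cow 14 was the only parity 1 Jersey with a high level of that gene, at 3.85 CPM. Cows 13, 17 and 18 held 0.770, 1.11 and 0.745 CPM, so the call came with the removal of the high cow.

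The smallest p among genes with a symbol was that of GIMAP4, with a difference in log2 fold change of 3.74 (SE 0.95, unadjusted p = 0.00161, adjusted p = 0.918). In the Jerseys of parity 1, cows 13, 14 and 18 held 8.28, 61.6 and 7.36 CPM of GIMAP4, and those of parity 3 held 26.6 to 67.8 CPM. High and low cows thus occurred within parity 1 of that breed, unlike in the Holsteins. All parity 3 Jerseys lay above the parity 3 Holsteins, which held 4.37 to 7.89 CPM. SOCS2 (-1.47, SE 0.48), LAMB3 (1.01, SE 0.35), REC8 (-6.65, SE 2.34) and LYZ (-1.11, SE 0.39) followed, each with an adjusted p of 0.918. For ENSBTAG00000015638 the Jerseys held both levels in both parities, from 0.438 to 9.06 CPM in parity 1 and from 0.335 to 12.1 CPM in parity 3.

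ACACA in the Jerseys was at 43.4, 38.7 and 29.7 CPM in cows 13, 14 and 17 of parity 1, with cow 18 lower still. It was at 35.9, 47.9, 46.4 and 47.9 CPM in parity 3 (cows 3, 4, 5 and 8). The groups overlapped. The means were 34.2 ± 8.36 and 44.6 ± 5.79 CPM (SD, n = 4 cows each), and the difference in log2 fold change between breeds was -0.78 (SE 0.30, unadjusted p = 0.0203, adjusted p = 0.918).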

How the data were processed

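Liver biopsies were stored in RNAlater, and stranded poly(A) libraries were sequenced in 1 run. Per the submitters' processing notes and the study's methods, the authors aligned read pairs with STAR 2.3.0 to UMD3.1 with Ensembl release 82 and deposited HTSeq counts, whole read pairs for each gene with no scaling or filter. The version of HTSeq and its strand setting are not given in the sources used here. The 5 summary rows of HTSeq held 23.8% of the read pairs of the 12 libraries and were left out.

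The counts of a cow's C and HC files were summed. Genes with at least 1 CPM in at least 3 of the 6 cows were tested in R 4.3.3 with edgeR 4.0.16 (TMM, quasi-likelihood F-test, two-sided, adjusted p under 0.05). The SE is the absolute log2 fold change divided by the square root of F. CPM values printed share 1 set of TMM factors over all 19 cows, or over all libraries where a library is given, and log2 CPM used a prior count of 2. DESeq2 1.42.0 and limma 3.58.1 were alternatives. Both libraries of a cow are 1 replicate, and each cow is a separate animal. The procedure was tested on simulated data.

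Named genes were, per direction, up to 15 called genes with a symbol, or else the 8 smallest p, then called members and the 3 smallest p of each fixed gene list, CYP7A1 and SOCS2, and the 5 smallest p between breeds, with the 2 identifiers that led in each direction. The members, lists and rules were chosen with earlier results of these data known, and the role groups and the counts against all 6 other cows after seeing these values. The 29 gene lists and marker lists held 657 symbols, of which 20 could be paired and tested (at most 12.5% of a list, with 80% needed), so no list was summarised. Paired list members had 0 calls. Of genes near 1 CPM a cow's value rests on few read pairs, and intervals are those of the fit.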

Additional observations from a re-analysis of the deposited data

How the results depend on the processing

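The 2 calls between parity 1 and parity 3 depended on the fit. The number was 2 with DESeq2's size factors, 6 without a filter on low counts, 84 with DESeq2's Wald test, 9 with feed efficiency added, 12 on the C diet alone and 4 on the HC diet alone. With all 9 Holsteins it was 0 (808 genes at an unadjusted p under 0.05), with feed efficiency added to those 1 (ACACA), and with parity as a number 0 (830 genes). The terms of the study's model (parity, diet and RFI group) on 18 libraries, fitted here in edgeR on the 11998 genes and treating a cow's libraries as independent, gave 47. With cows as a random replicate block (libraries paired by the cow's number in their titles), limma-voom gave 8, all among the 47, and neither of the 2 calls. LAMB3, ACACA and MYOM1 were the 3 with a symbol. The estimated correlation of 0.192 was applied to all genes alike, so the p is too small for genes whose libraries follow the cow more closely. Without 1 cow the number ranged from 0 to 5. Without cow 1, 2 or 6 ENSBTAG00000015638 was under the limit of expression and was not tested, and without cow 1 or 6 there were 0 calls. Without cow 15 or 16 there were 5 each, and without cow 19 there was 1. Without the HC library of cow 16, an alternative chosen after seeing the data, there were 3. The cause of the other changes was not tested.

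Called genes with a parity 2 mean between the others numbered 6 of 6 without the filter, 70 of 84 with DESeq2, 9 of 9 with feed efficiency, 1 of 1 with 9 cows and feed efficiency, 0 of 0 with 9 cows or parity as a number, 43 of 47 in the 18 libraries, 7 of 8 with the replicate block, 11 of 12 on C and 4 of 4 on HC, and 0 to 4 without 1 cow. The calls between breeds numbered 0 in each alternative, except without Jersey cow 14 (0 to 1 without 1 cow). Of the 20 genes whose log2 fold change was followed through the alternatives, 0 changed sign. CYP7A1, not among the 20, had opposite signs on the 2 diets (0.82 on C and -1.08 on HC).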

Other observations

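Parity 2 held 2 cows of Low feed efficiency and 1 of High, the reverse of the other parities. The 3 genes described next came from the study's list for RFI, so feed efficiency weighs unequally in their parity 2 levels. Only cow 11 of parity 2 can be set beside the High cows of parity 1 and parity 3. It held 259 CPM of CYP7A1 against 64.5 to 107 CPM in those cows. For UHRF1 it held 0.505 against 5.45 to 12.7 CPM, and for FICD 1.95 against 6.84 to 12.3 CPM. These genes were picked after their values were seen, and a difference of parity 2 was not tested. CYP7A1 held 620, 246 and 259 CPM in cows 7, 9 and 11 of parity 2, above all parity 1 cows (93.2 to 199 CPM) and all parity 3 cows (64.5 to 223 CPM). The highest level in each parity was that of a cow of Low feed efficiency. UHRF1, which keeps DNA methylation through replication, held 0.413, 0.528 and 0.505 CPM in parity 2. It held 1.48, 7.96 and 5.997 CPM in parity 1 and 5.45, 0.611 and 12.7 CPM in parity 3, where the Low cows 15 and 2 were the lowest of their parity. FICD, an enzyme that modifies the chaperone BiP in the endoplasmic reticulum, held 1.13, 2.06 and 1.95 CPM in parity 2. That was below parity 1 (5.01 to 12.3 CPM) but within the range of parity 3, in which cow 2 held 0.636 CPM, and cows 15 and 2 were again the lowest of their parity. In the comparison of parity 1 with parity 3, UHRF1 and FICD had log2 fold changes of -0.29 (SE 0.89) and 0.23 (SE 0.77), with the spread among cows of a parity larger than the difference.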
